A study of Homo sapiens with 24 samples.

Results

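The genes that encode the proteins of the cytosolic ribosome were followed across normal pancreas cells exposed to vesicles from pancreatic cancer cells. Members were the protein-coding rows of the deposited expression tables whose symbol is that of a numbered, A, X or P protein of the large (RPL) or small (RPS) subunit. The rule found 78 of 48162 rows, 47 for the large and 31 for the small subunit, and it used no expression value. The 78 rows carry 77 symbols, since RPL26 is listed with 2 rows. Genes of ribosomal proteins with other kinds of symbol (such as FAU and GNB2L1, the gene also called RACK1) and the L-suffixed paralogs lie outside the rule and are described after the members.

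The recipient lines were hTERT-HPNE (HPNE), a pancreas line immortalised with telomerase, and HPDE-H6c7 (HPDE), immortalised epithelial cells of the pancreatic duct. All cells grew in keratinocyte serum-free medium and were then kept for 24 h in 1 of 4 conditions: fresh serum-free medium (untreated), the residual medium that remained after vesicle isolation (the negative control), extracellular vesicles (EV) of PANC-1 pancreatic carcinoma cells at 1e10 per well, or EV of PPCL-68 cancer cells at the same number. Each of the 8 groups had 3 libraries of total RNA, described as biological triplicates, made with a kit that does not record strand. Each line is a single established line, and fewer cells and less RNA per cell cannot be told apart in these bulk samples.

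A ribosome is built from ribosomal RNA and one copy of nearly every ribosomal protein, so the cell has to make the proteins in matched amounts. Their mRNAs are among the most abundant of any growing cell, and most of them open with a run of pyrimidines, the 5′ terminal oligopyrimidine (TOP) motif, through which the growth-sensing kinase mTORC1 and the binding protein LARP1 control their translation and stability. Many members have further roles away from the ribosome, such as the binding of MDM2 by RPL5, RPL11 and RPL23.

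The sequences below show this start for the members on which the results turn. Each window holds the 10 bases before and the 20 bases after the transcript start in the RefSeq promoter table (build GRCh38.p14), read 5′ to 3′ on the gene's strand. Capitals mark the run of C and T that begins with a C at the start itself, where it was followed by at least 4 further C or T.
RPL12 (chr9:127451387-127451416): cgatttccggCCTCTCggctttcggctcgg
RPS12 (chr6:132814559-132814588): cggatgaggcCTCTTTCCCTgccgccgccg
RPLP0 (chr12:120201092-120201121): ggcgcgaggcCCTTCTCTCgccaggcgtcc
RPS14 (chr5:150449720-150449749): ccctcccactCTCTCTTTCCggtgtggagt
RPL22 (chr1:6199576-6199605): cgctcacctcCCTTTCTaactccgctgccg
RPS25 (chr11:119018324-119018353): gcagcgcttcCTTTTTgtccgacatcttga
RPL38 (chr17:74203668-74203697): aagtctcgttCTTTTTCgtccttttccccg
RPL24 (chr3:101686699-101686728): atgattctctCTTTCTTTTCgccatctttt
RPL4 (chr15:66504836-66504865): cgggagtggtaagcacttccttttcctgtg
RPS26 (chr12:56041908-56041937): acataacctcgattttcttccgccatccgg
The first 8 open with the run and the starts listed for RPL4 and RPS26 do not. Of 62 member symbols found in the table, 46 (74.2%) had the run at a listed start, against 5.14% of all 27305 symbols there. The longest run at a member start was 19 bases and the median was 8 among the starts that have the run, which were 59.7% of the 77 member starts. A listed start need not be the one these cells use, and no run says only that these letters are not at that position.

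The values are FPKM, read numbers divided by gene length and by library depth, as the authors deposited them. Depth, as reads recovered from the values, ran from 29874928 to 46490312 in the HPNE libraries and from 29209142 to 42206773 in the HPDE libraries. The duct marker EPCAM lay at 148 to 192 FPKM in HPDE and at 0 to 0.162 in HPNE, where VIM, a mesenchymal marker, lay at 149 to 539 and COL1A1 at 1411 to 4337, so the HPNE libraries carried mesenchymal rather than duct markers. The acinar gene PRSS1 and the endocrine gene INS were at 0 in all 24 libraries.

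HPDE replicates lay close together: every library was nearer to the libraries of its own group (at most 0.175, the root mean square of log2 differences) than to any other library (at least 0.225). HPNE replicates did not. In each HPNE group 1 library lay apart from the other pair: untreated replicate 3, residual medium replicate 3, PANC-1 EV replicate 1 and PPCL-68 EV replicate 1. Residual medium replicate 3 was nearer to PANC-1 EV replicate 2 (0.394) than to its own group (0.455). HPNE results are therefore given with and without these 4 libraries. The choice of the 4 was made after the data were seen and lowers the spread within groups by its construction. It also moves the group means of the members, as given with their summed levels below. Counts without the 4 are therefore no independent evidence.

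The members were among the most abundant transcripts of both lines. Together they held 5.33 to 7.24% of the FPKM and 2.59 to 3.73% of the reads of an HPNE library, and 6.47 to 7.70% of the FPKM and 3.54 to 4.47% of the reads of an HPDE library. The median member had a mean over the 12 libraries of 179 FPKM in HPNE and 261 FPKM in HPDE. In HPNE 48 of the 78 rows lay between 100 and 500 FPKM and 9 above 500, and in HPDE 43 lay between 100 and 500 and 18 above 500. RPL8, a protein of the core of the large subunit, was the highest in HPNE at 753 ± 68.8 FPKM (SD, n = 12 libraries), and RPL7A was next at 732 ± 109, a difference below the spread of either. RPS2, a protein near the mRNA entry of the small subunit, was the highest in HPDE at 1355 ± 153, above RPS12 at 953 ± 142 and RPL10 at 942 ± 114.

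A few rows were far lower. RPS10 averaged 0.627 FPKM in HPNE and 2.53 in HPDE, RPL36A 0.799 and 2.13, RPL17 1.52 and 4.16, RPS15A 1.66 and 3.18, and the main RPL26 row 2.22 and 5.02. Each of these 5 rows overlaps another protein-coding row on the same strand in the deposited tables, and how reads shared by such rows were counted is not stated. RPL13A, RPL36, RPS13 and RPS29 overlap such a row too, yet lay at 434, 154, 268 and 19.7 FPKM in HPNE. The second RPL26 row had at most 0.0620 FPKM in any library. Rows below a mean of 1 FPKM, among them the second RPL26 row and, in HPNE, RPS10 and RPL36A, were not tested, which left 74 rows in HPNE and 76 in HPDE. RPS23, RPL23A and RPL30 (12.5, 11.3 and 13.3 FPKM in HPNE) overlap rows on the opposite strand only, and reads of such rows cannot be told apart in libraries without strand. The values of the rows named in this paragraph are therefore levels of the counted rows and may not be levels of the mRNAs.

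**Figure D1:**
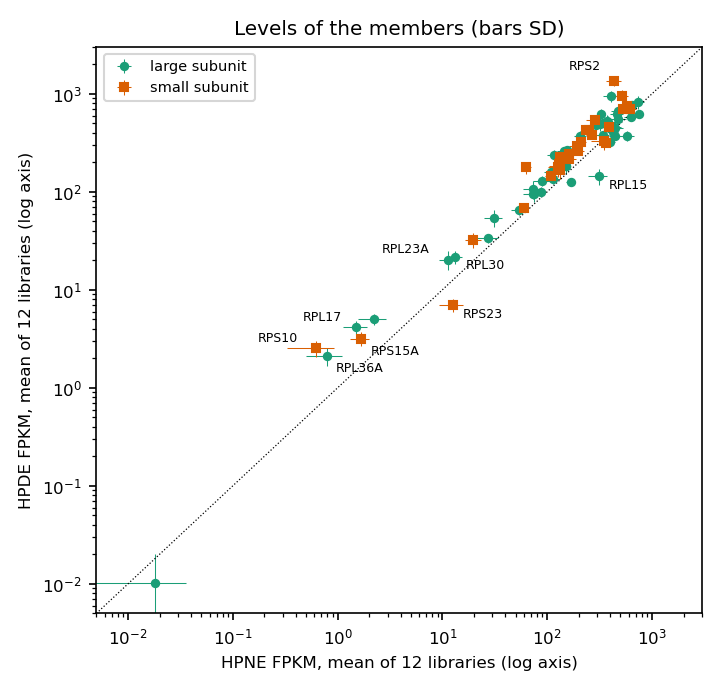
Mean FPKM of each ribosomal protein row over the 12 libraries of HPNE (x axis) and of HPDE (y axis), both axes logarithmic, with bars of 1 SD, circles for the large and squares for the small subunit and the diagonal of equal levels dotted. A level of 0 cannot be drawn on these axes. Most rows lie above 100 FPKM near the diagonal, RPS2 lies above it, RPL15 and RPS23 lie below it, and a group of rows overlapping other genes lies under 10 FPKM.

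Untreated cells of the lines were compared first, to give the baseline. Differences here and below are on the log2(FPKM + 1) scale, tested with limma and adjusted over all genes tested, with a threshold of 0.05. Of 76 members, 49 were higher in HPDE, where 56% of all 12377 genes tested were, and 10 were lower, where 27.7% of all genes were. The median member was 0.33 higher and the median gene 0.38 higher, so the median member lay near the median gene. The 10 most abundant genes held 14.5 to 18.3% of the reads of HPNE libraries and 4.33 to 5.21% of those of HPDE libraries, and the part of this in the line difference was not tested. After division by median-of-ratios size factors the median gene moved to 0.07 and the median member to -0.03, with 23 members higher (43.6% of all genes) and 18 lower (38.4%). Without the HPNE libraries that lay apart 48 were higher (58.7%) and 13 lower (29.1%). Directions of members near the middle of the range, named in the section on processing, therefore depend on the scaling.

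The members at the extremes kept their direction under both scalings. RPS21, a small subunit protein, measured 55.7, 69.0 and 58.0 FPKM in untreated HPNE (replicates 1 to 3, an order kept in every list of 3 values) and 175, 154 and 179.7 in untreated HPDE. RPS2 measured 545, 555 and 398 FPKM in HPNE and 1242, 1224 and 1282 in HPDE. RPL15 went the other way, at 402, 398 and 349 FPKM in HPNE and 173, 160.3 and 169.7 in HPDE. None of these 3 ranges overlapped between the lines, and the log2 differences were 1.47 for RPS21 (adjusted p = 5.0e-10), 1.34 for RPS2 (adjusted p = 1.6e-08) and -1.19 for RPL15 (adjusted p = 3.5e-08). RPL35A was higher in HPDE by a log2 difference of 1.03, RPL29 was lower by a log2 difference of -0.68 and RPL8 by -0.45. The 47 large subunit rows summed to 1.78 to 1.87 times the small subunit rows in HPNE libraries and to 1.42 to 1.48 times in HPDE libraries, with no overlap. RPS2 alone averaged 438 FPKM in HPNE and 1355 in HPDE.

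The summed FPKM of the members gives their joint level relative to the reads of each library, not an amount per cell. In HPDE the sum was 25829.9, 25161 and 26337.5 in untreated cells, 27274, 26424 and 27114 with residual medium, 21488, 23759 and 23731 after PANC-1 EV and 25714, 26457 and 23824 after PPCL-68 EV. Every PANC-1 EV library lay below every untreated and every residual medium library, and the PPCL-68 EV libraries overlapped the untreated ones and reached just above the lowest residual medium library. The group means were 25776 ± 590.1, 26937 ± 452, 22993 ± 1303 and 25332 ± 1357 (SD, n = 3). As a share of the FPKM of all genes, which also varied between libraries, the means were 7.45, 7.55, 6.81 and 7.45% in the same order.
In HPNE the sum was 22530.2, 22609.7 and 19464 in untreated cells, 17107, 17833 and 20697 with residual medium, 20225, 18460.3 and 17387.5 after PANC-1 EV and 21336, 16354 and 15886.5 after PPCL-68 EV. These groups overlapped, apart from the untreated pair of replicates 1 and 2, which lay above every other HPNE library. The library that lay apart in each treated group was also the highest of its group.

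**Figure D2:**
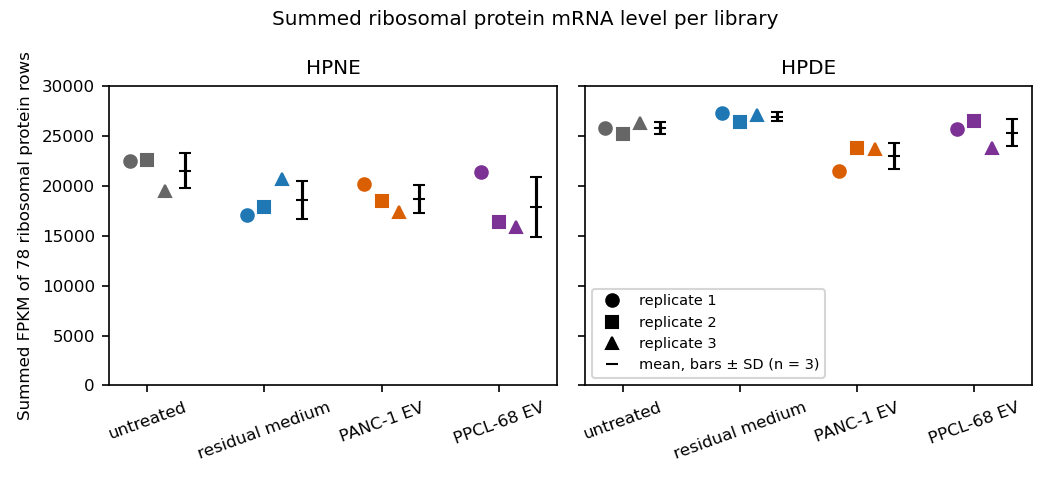
Summed FPKM of the 78 ribosomal protein rows in each library of HPNE (left) and HPDE (right), by group; symbols mark replicates 1 to 3 and the bars the mean ± SD of 3 libraries. In HPDE the 3 PANC-1 EV libraries lie between 21488 and 23759, below all untreated and residual medium libraries, while the HPNE groups spread widely.

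The same pattern held member by member in HPDE. Compared with its own mean over the 12 HPDE libraries, the level was above the mean for 66, 59 and 68 of 76 members in the residual medium libraries and for 54, 46 and 61 in the untreated libraries. It was above the mean for 4, 12 and 11 members in the PANC-1 EV libraries and for 34, 41 and 13 in the PPCL-68 EV libraries. PANC-1 EV libraries were thus low across nearly the whole family, and PPCL-68 EV libraries held both high and low members.

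**Figure D3:**
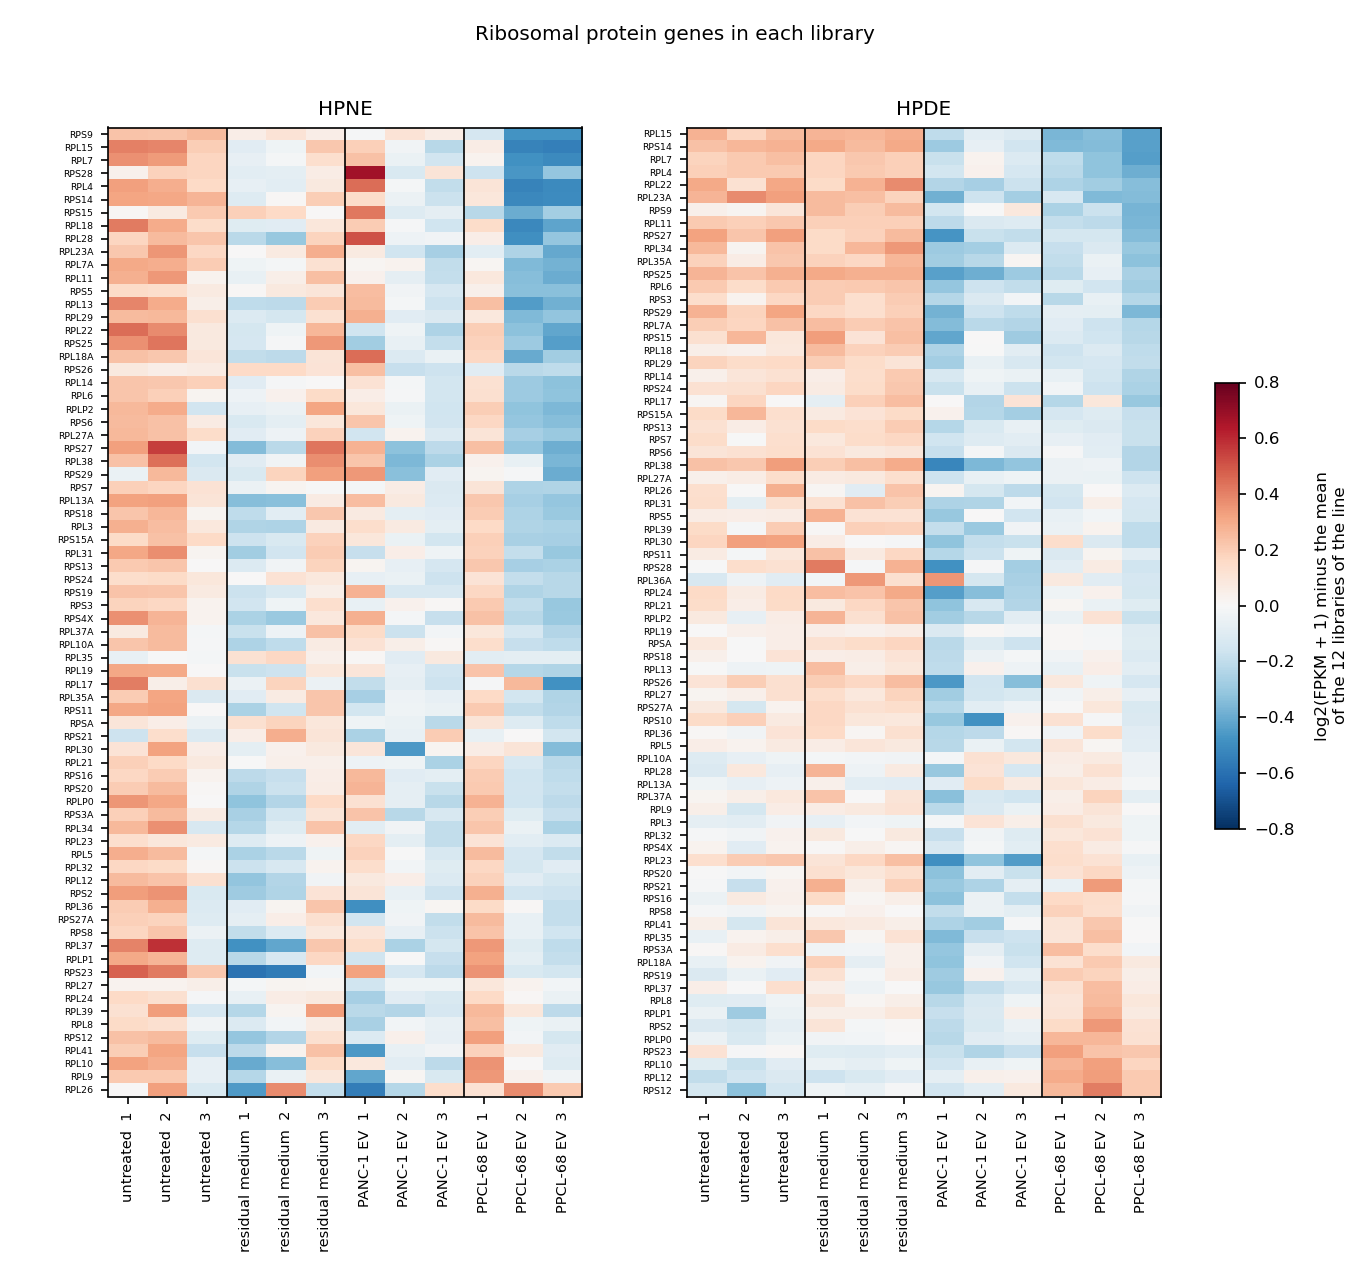
Each tested ribosomal protein row (rows) in each library (columns) of HPNE (left, 74 rows) and HPDE (right, 76 rows), as the log2(FPKM + 1) value minus the mean of the 12 libraries of the line; red is above and blue below that mean, and rows are ordered within each line. In HPDE the PANC-1 EV columns are blue for most rows and the PPCL-68 EV columns run from blue at the top (RPL15, RPS14) to red at the bottom (RPS12, RPL12). In HPNE PPCL-68 EV replicate 1 is above the mean for 66 of the 74 rows, replicate 2 for 11 and replicate 3 for 1. RPS9, RPS15 and RPS26 are among the rows below the mean in all HPNE PPCL-68 EV libraries.

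Each vesicle group was compared with residual medium, the labelled negative control. In HPDE, PANC-1 EV against residual medium lowered 58 of 76 members, against 35.1% of all 12223 genes tested, and raised 1, against 28.2%. The fall covered both subunits, with 34 of 46 large and 24 of 30 small subunit members lower. The median member had a log2 difference of -0.27 and the median gene -0.04, and the members ranged from -0.66 to 0.12. Against untreated cells, PANC-1 EV lowered 50 members (34.4% of all genes) and raised 2 (26.3%). With size factors the counts against residual medium were 52 lower (31.6%) and 1 higher (30.8%). The mitochondrial share of reads was 0.362 to 0.635% in the HPDE PANC-1 EV libraries and 0.929 to 1.04% in the residual medium libraries, and its part in these differences was not tested.

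The largest falls after PANC-1 EV were in RPS25, RPL38, RPL24, RPL23 and RPS26. RPS25, a protein of the small subunit head used by viral internal ribosome entry sites, measured 216, 213 and 214 FPKM with residual medium and 129, 133 and 143 after PANC-1 EV. RPL38, which in mice is needed for translation of some Hox mRNAs, measured 61.0, 62.9 and 65.3 and then 36.7, 41.2 and 42.4. RPL24, which joins the large subunit late and bridges to the small one, measured 233, 231 and 243 and then 145, 155 and 165. In each case all vesicle libraries lay below all control libraries, by a log2 difference of -0.66 ± 0.05 for RPS25 (SE, adjusted p = 9.1e-08), -0.64 ± 0.06 for RPL38 (adjusted p = 7.1e-07) and -0.60 ± 0.06 for RPL24 (adjusted p = 4.5e-07). RPL23, at the face between the subunits, went from 192, 200.4 and 211 FPKM to 127, 142 and 131, a log2 difference of -0.59 ± 0.06 (adjusted p = 1.0e-06). RPS26, at the channel where mRNA leaves and mutated in Diamond-Blackfan anaemia, went from 254, 249 and 264 to 161, 199.6 and 175, a difference of -0.52 ± 0.07 (adjusted p = 1.7e-05).

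RPL11 measured 556, 555 and 555 FPKM with residual medium and 419.8, 449 and 454 after PANC-1 EV, a log2 difference of -0.33. RPL5, its partner on the smallest RNA of the large subunit, measured 652, 669 and 662 and then 536, 604 and 565, a difference of -0.22 (adjusted p = 0.0032). Neither pair of groups overlapped. RPS6, the substrate of the S6 kinases, fell by 0.20 on the log2 scale (adjusted p = 0.0084), RPSA, also known as the laminin receptor precursor, by 0.31, and RPS27A, made as a fusion with ubiquitin, by 0.26 (adjusted p = 0.0039). RPS3, which sits at the mRNA entry and takes part in DNA repair, fell by 0.30 (adjusted p = 0.00079).

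Few members held their level after PANC-1 EV. RPL12, at the base of the stalk that recruits elongation factors, was the 1 member called higher, at 325, 336 and 343 FPKM with residual medium and 347, 376 and 373 after PANC-1 EV, a log2 difference of 0.12 ± 0.05 (adjusted p = 0.038). That call was lost with the replicate block (adjusted p = 0.052), without the filter on low values (adjusted p = 0.095), in a fit of the compared libraries alone (adjusted p = 0.063) and without any of PANC-1 EV replicates 2 and 3 or residual medium replicates 1 and 2 (adjusted p from 0.072 to 0.115). RPL3, a core protein of the peptidyl transferase centre, had a log2 difference of 0.09 (adjusted p = 0.14), RPL10 -0.03 (adjusted p = 0.68) and RPS12 -0.02 (adjusted p = 0.82). These values did not differ beyond the spread of the fit.

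PPCL-68 EV split the family in HPDE. Against residual medium they lowered 40 of 76 members (36.4% of all genes) and raised 7 (31.3%), with 23 of 46 large and 17 of 30 small subunit members lower. The median member had a log2 difference of -0.18 and the median gene -0.03, and the members ranged from -0.66 to 0.40. The share of members called lower was thus above the share of all genes and the share called higher was below it. Against untreated cells, 33 members were lower (36.1%) and 9 higher (30.1%). With size factors the counts against residual medium were 35 lower (33.8%) and 7 higher (33.4%).

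The 7 members raised by PPCL-68 EV were RPL12, RPS23, RPS12, RPL10, RPLP0, RPS2 and RPL37. RPL12 reached 448, 460.5 and 421 FPKM, above all residual medium libraries, a log2 difference of 0.40 ± 0.05 (adjusted p = 4.3e-06). RPLP0, the protein that anchors the stalk, measured 750.4, 754 and 766 FPKM with residual medium and 919, 921 and 831 after PPCL-68 EV, a difference of 0.23 ± 0.06 (adjusted p = 0.0020). RPL10, which joins last and closes the tRNA sites, went from 902, 890.3 and 914 to 1132, 1178 and 1055, a difference of 0.31 ± 0.05 (adjusted p = 0.00014). RPS12, a small subunit protein, went from 923, 904 and 939 to 1132, 1251 and 1093, a difference of 0.33 ± 0.07 (adjusted p = 0.00098). The groups did not overlap for any of these 4 members. RPS23, which lines the decoding site, rose by 0.35 ± 0.05 (adjusted p = 4.7e-05) at the low counted level of 6.39 to 8.96 FPKM, and RPS2 and RPL37 rose by 0.17 (adjusted p = 0.033) and 0.14 (adjusted p = 0.041). The calls of RPS2 and RPL37 were lost with the replicate block (adjusted p = 0.057 and 0.059), without the filter (adjusted p = 0.173 and 0.103) and without residual medium replicate 2 or 3 or PPCL-68 EV replicate 2, which left 5 members higher in each case, and without PPCL-68 EV replicate 3 the count was 10.

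The other stalk proteins had other values. RPLP2 measured 576, 522 and 562 FPKM with residual medium and 461, 518 and 423 after PPCL-68 EV, a log2 difference of -0.25 (adjusted p = 0.0085), with all vesicle libraries below the controls. RPLP1 measured 521, 521 and 536 and then 542, 613 and 529.9, a difference of 0.09 (adjusted p = 0.30) with overlapping groups.

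The members lowered most by PPCL-68 EV were RPS14, RPL15, RPL22, RPL7 and RPL4. RPS14, whose loss drives the anaemia of a myelodysplastic syndrome, measured 203, 196 and 203 FPKM with residual medium and 129, 129 and 121 after PPCL-68 EV. RPL15, another gene mutated in Diamond-Blackfan anaemia, measured 172, 171 and 174 and then 110.0, 112 and 105. RPL22, dispensable for translation and needed for early T cells in mice, measured 118, 129 and 138 and then 89.0, 87.1 and 83.3. All vesicle libraries of these 3 members lay below all controls, by -0.66 ± 0.05 for RPS14 (adjusted p = 5.0e-08), -0.66 ± 0.04 for RPL15 (adjusted p = 1.1e-08) and -0.56 ± 0.06 for RPL22 (adjusted p = 1.5e-06). RPL4, whose loop lines the exit tunnel, went from 623, 638 and 631 FPKM to 476, 442 and 421, a difference of -0.50 ± 0.06 (adjusted p = 2.5e-06), and RPL7 from 576, 595 and 584 to 444, 409 and 377, a difference of -0.51 (adjusted p = 4.4e-06).

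**Figure D4:**
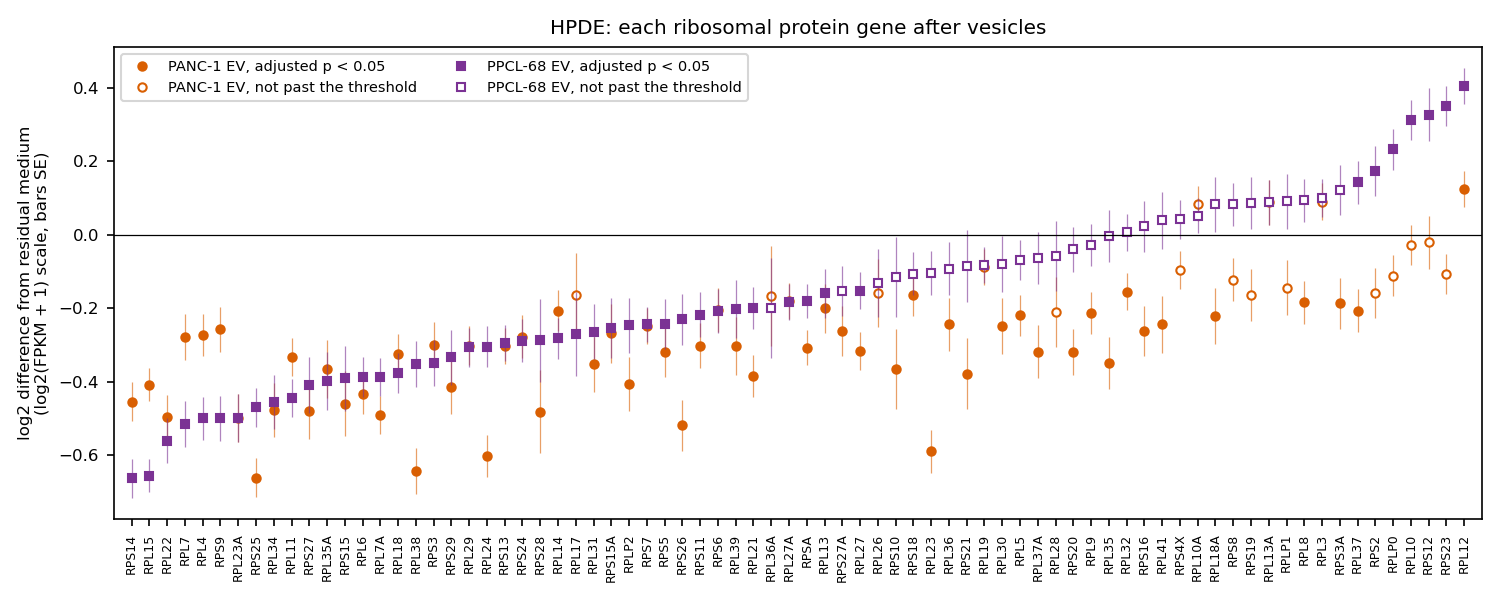
Log2 difference from residual medium (y axis, log2(FPKM + 1) scale, bars of 1 SE) of each tested member in HPDE, ordered by the PPCL-68 EV difference; circles are PANC-1 EV, squares PPCL-68 EV, and filled symbols have an adjusted p under 0.05. The PPCL-68 EV differences run from -0.66 (RPS14) to 0.40 (RPL12), and the PANC-1 EV differences stay below 0 for 72 of the 76 members.

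The vesicle sources were also set against each other in HPDE. PANC-1 EV libraries were lower than PPCL-68 EV libraries for 31 members (24.9% of all genes) and higher for 5 (25.2%), with a median member difference of -0.11. The members lower after PANC-1 EV were led by RPL23, at 127, 142 and 131 FPKM against 197, 194 and 172, a log2 difference of -0.49 (adjusted p = 1.3e-05). RPS23, RPL37, RPS12 and RPL35 followed with differences of -0.46, -0.35, -0.35 and -0.35. The 5 members higher after PANC-1 EV were RPL15, RPS9, RPL7, RPL4 and RPS14, with differences of 0.25, 0.24, 0.24, 0.23 and 0.21. RPL10 and RPLP0 were lower after PANC-1 EV by -0.34 each. RPL22 and RPS6 had differences of 0.06 (adjusted p = 0.41) and 0.00 (adjusted p = 0.97), so a difference between the sources was not detected for them.

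Few members differed between residual medium and untreated cells in HPDE. Against untreated cells 1 member was called lower (10.1% of all genes), RPL30, with a log2 difference of -0.25 (adjusted p = 0.030), and 0 were called higher (9.93%). The RPL30 call was lost with the replicate block (adjusted p = 0.051), without the filter (adjusted p = 0.116), with size factors (adjusted p = 0.052) and without untreated replicate 2 or 3 or any 1 residual medium library (adjusted p from 0.052 to 0.097). The median member was 0.05 higher and the median gene -0.01. In a fit of the 6 libraries compared 11 members were called higher. The share of all genes in that fit is not given here, so this count is no result about the members as a family.

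**Figure D5:**
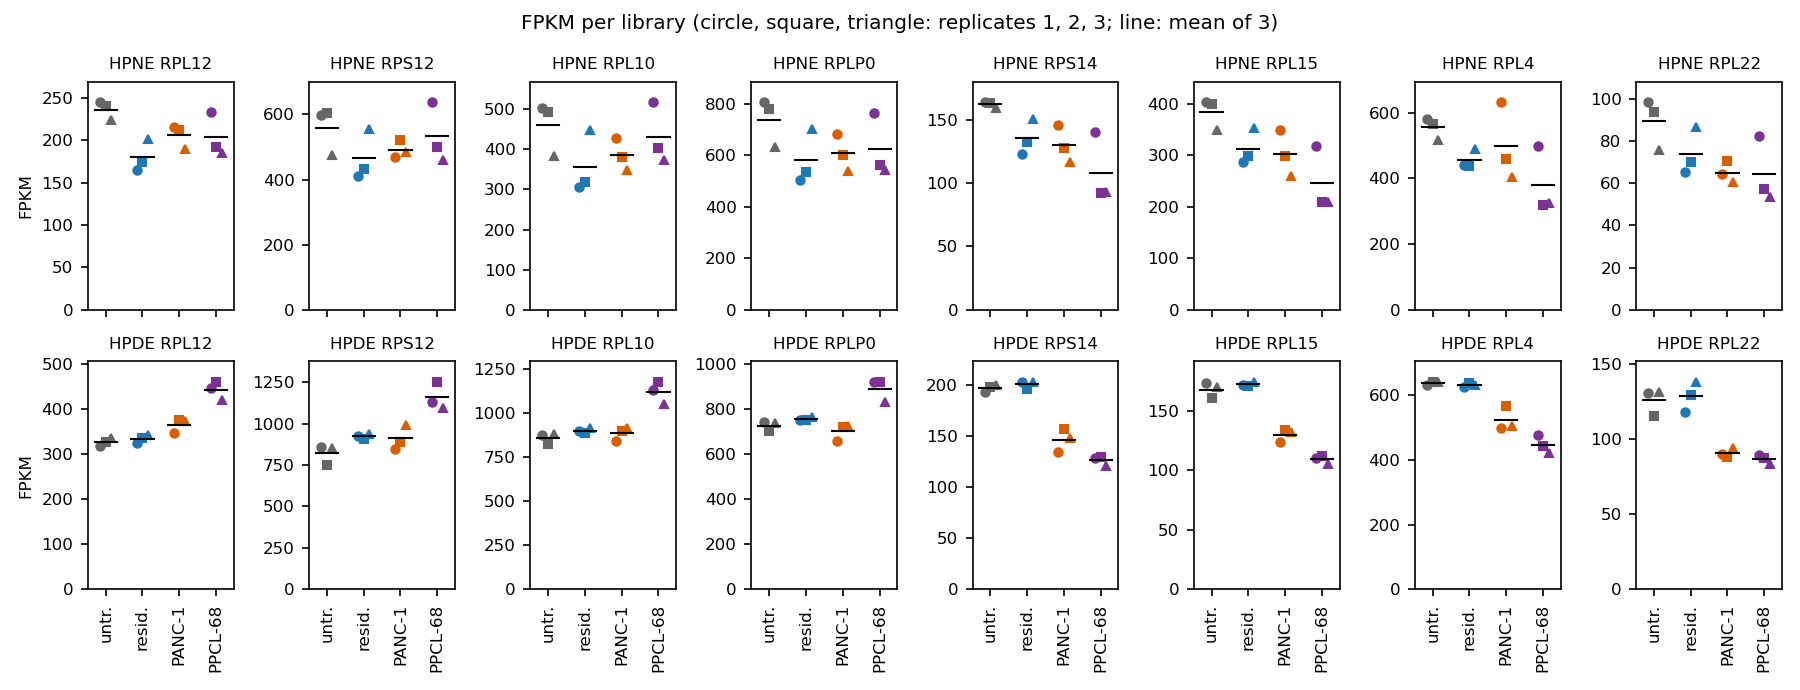
FPKM per library (y axes from 0) of 8 members in HPNE (top) and HPDE (bottom), by group (untreated, residual medium, PANC-1 EV, PPCL-68 EV); symbols are replicates 1 to 3 and lines the group means. In HPDE the PPCL-68 EV libraries are the highest for RPL12, RPS12, RPL10 and RPLP0 and the lowest for RPS14, RPL15 and RPL4, with RPL22 overlapping PANC-1 EV, and in HPNE PPCL-68 EV replicate 1 lies above replicates 2 and 3 for all 8.

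In HPNE few members passed the test, and the spread between replicates was larger. PANC-1 EV against residual medium gave 0 members higher (13.9% of all 11503 genes) and 0 lower (10.3%) in limma, with 1 at an unadjusted p under 0.05, and size factors gave 0 higher (11.7%) and 1 lower (16.1%). The median member had a log2 difference of -0.02 and the median gene 0.02. PPCL-68 EV against residual medium lowered 4 members (19.7% of all genes) and raised 0 (20.3%), with a median of -0.08. These were RPS9 at -0.44 (adjusted p = 0.0056), RPS15 at -0.42 (adjusted p = 0.029), RPL23A at -0.37 (adjusted p = 0.027) and RPS26 at -0.31 (adjusted p = 0.039). Without PPCL-68 EV replicate 1 the count was 18 lower, without residual medium replicate 1 it was 2, and without PPCL-68 EV replicate 2 or 3 or residual medium replicate 2 it was 1. The shares of all genes in these fits are not given here, so these counts show only how the calls depend on single libraries. RPS9, a protein of the decoding region, measured 166, 172 and 166 FPKM with residual medium and 145, 114 and 114 after PPCL-68 EV, without overlap. RPS26 measured 146, 147 and 142 and then 123, 113 and 114, also without overlap. RPS9 also was the 1 member higher after PANC-1 EV than after PPCL-68 EV (3.22% of all genes), by 0.42 (adjusted p = 0.034), and 0 were lower (2.25%). In these 2 vesicle groups same-numbered HPNE libraries deviated together (correlation of deviations across genes 0.29 to 0.57), and a replicate block in the fit of the 12 libraries left 0 members called.

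The members with the largest responses in HPDE show how the library spread enters in HPNE. RPL15 measured 286, 298 and 353 FPKM with residual medium and 317, 209 and 208 after PPCL-68 EV, a log2 difference of -0.37 (adjusted p = 0.11). RPS14 measured 123, 132 and 151 and then 140.2, 91.8 and 92.8, a difference of -0.34 (adjusted p = 0.10). RPL4 measured 442, 437 and 488 and then 497, 319 and 325, a difference of -0.29 (adjusted p = 0.26). In all 3, PPCL-68 EV replicate 1 lay within or above the control values while replicates 2 and 3 lay below them. RPL10 measured 305, 319 and 447 and then 518, 403 and 375, a difference of 0.28 (adjusted p = 0.24), with residual medium replicate 3 above 2 of the vesicle libraries.

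Without the 4 libraries that lay apart, 74 members were tested and more were called. PPCL-68 EV against residual medium then lowered 31 (37.5% of all genes) and raised 5 (28.2%). RPL15, RPS14, RPL7 and RPL4 were lower by -0.48, -0.46, -0.46 and -0.45, and RPS23, RPL10, RPS12 and RPL12 were higher by 0.44, 0.32, 0.19 and 0.16. PANC-1 EV against residual medium raised 15 (28.1%) and lowered 6 (31%), with RPS26 lower by -0.33 and RPL13A higher by 0.32. PANC-1 EV against PPCL-68 EV gave 31 higher (22.6%) and 0 lower (13.9%). The share of members called lower after PPCL-68 EV was close to that of all genes here.

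In HPNE residual medium against untreated lowered 3 members (25.2% of all genes) and raised 0 (18.7%), with a median of -0.20 against -0.05 for all genes. RPS23 fell by 0.76 on the log2 scale (adjusted p = 0.010), RPL13A, a large subunit protein also known from translational silencing, by 0.45 (adjusted p = 0.049) and RPL12 by 0.40 (adjusted p = 0.017). RPL13A measured 534, 538 and 459.7 FPKM in untreated cells and 338, 339 and 448 with residual medium, and RPL12 measured 245, 239.8 and 224 and then 165, 174 and 201, both without overlap. With size factors the median member was -0.08 against 0.06 for all genes, with 1 member higher and 1 lower, and over all genes the counts went from 2153 higher and 2899 lower to 3329 and 2085. Without the 4 libraries 60 members were lower (36%) and 2 higher (35.7%), counts that include the shift of the group means described above.

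Against untreated HPNE cells PPCL-68 EV lowered 15 members (23.8% of all genes) and raised 0 (18.7%), and PANC-1 EV lowered 1 (11.5%), RPL23A, at a log2 difference of -0.36 (adjusted p = 0.0498), and raised 0 (9.61%). The RPL23A call was lost with the replicate block (adjusted p = 0.065), a pseudocount of 0.1 (adjusted p = 0.052), no filter (adjusted p = 0.10), size factors (adjusted p = 0.072) and the compared libraries alone (adjusted p = 0.052). The 15 members lower after PPCL-68 EV were 6 without the filter, 8 with size factors, 6 without any 1 of untreated replicates 1 and 2 and PPCL-68 EV replicates 2 and 3, and 39 without PPCL-68 EV replicate 1. The shares of all genes in these fits are not given here, so the move to 39 is no result about the members as a family. The 15 were led by RPL15 at -0.67 (adjusted p = 0.0096), RPL7 at -0.62, RPS14 at -0.61, RPS9 at -0.60 (adjusted p = 0.00078) and RPL4 at -0.57 (adjusted p = 0.033). Without the 4 libraries the counts were 67 lower (38.5%) after PPCL-68 EV and 66 lower (33.3%) after PANC-1 EV, with 0 higher in each (31% and 29.5% of all genes). These counts too include the shift of the group means that comes with leaving the 4 out.

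The vesicle effects were compared between the lines by an interaction contrast in a fit of all 24 libraries. For PANC-1 EV against residual medium the effect was lower in HPDE for 5 of 76 members (12.5% of all genes) and higher for 0 (8.65%), with a median of -0.25 against -0.03 for all genes. The 5 were RPS28, RPL23, RPL7A, RPL24 and RPL27. For PPCL-68 EV it was lower for 1 (13.6%) and higher for 0 (12.1%), with a median of -0.08. For residual medium against untreated it was higher for 4 (21%) and lower for 0 (17.1%), with a median of 0.25 against 0.03. Most members thus had no detected difference between the lines, at the spread of the HPNE libraries. Without the 4 libraries the counts were 47 lower and 0 higher for PANC-1 EV (22.5% and 24.3% of all genes), 5 lower and 1 higher for PPCL-68 EV (19.2% and 26.6%) and 57 higher and 0 lower for residual medium (30% and 31.9%).

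The member differences of the lines, which share no libraries, can also be set side by side. Over the 74 members tested in both lines, the PPCL-68 EV differences from residual medium had a Pearson correlation of 0.81 and a Spearman correlation of 0.81, where all 10483 genes tested in both lines had a Pearson correlation of 0.66. Of the 74, 44 were below 0 in both lines and 18 above 0 in both. For PANC-1 EV the correlations over members were 0.58 and 0.56, where all genes had 0.56 (Pearson), with 43 below 0 in both lines and 4 above. These correlations are across genes, which are not independent replicates, and each line's differences share its residual medium libraries.

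Ribosomal proteins with other symbols were set beside the members. FAU, which encodes a small subunit protein, fell in HPDE by 0.37 after PANC-1 EV and 0.25 after PPCL-68 EV, and the second call was lost with size factors (adjusted p = 0.059), without the filter (adjusted p = 0.108) and without any of residual medium replicate 1 or 2 or PPCL-68 EV replicate 3 (adjusted p from 0.068 to 0.156). GNB2L1, the scaffold protein of the small subunit head, had HPDE differences of 0.00 (adjusted p = 0.95) and -0.01 (adjusted p = 0.93). In HPNE FAU had a difference of -0.30 after PANC-1 EV (adjusted p = 0.083), which was not called, and fell by 0.34 after PPCL-68 EV (adjusted p = 0.040). GNB2L1 had HPNE differences of 0.28 (adjusted p = 0.25) and 0.19 (adjusted p = 0.42).

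Several paralogs changed in HPDE. RPL22L1, which can take the place of RPL22 in the ribosome, measured 12.4, 10.4 and 13.0 FPKM with residual medium, 23.9, 26.6 and 24.7 after PANC-1 EV and 17.5, 17.1 and 16.3 after PPCL-68 EV. It rose by 1.02 ± 0.07 (adjusted p = 2.4e-08) and 0.48 ± 0.07 (adjusted p = 3.0e-05), where RPL22 fell by 0.50 and 0.56. In HPNE RPL22L1 measured 14.9, 15.2 and 27.5 FPKM untreated, 45.2, 46.5 and 20.6 with residual medium, 18.5, 35.7 and 34.8 after PANC-1 EV and 15.6, 25.9 and 27.8 after PPCL-68 EV, with overlap between all groups. RPL36AL fell after both kinds of vesicle in both lines, by 0.88 and 0.74 in HPDE and by 0.67 and 0.78 in HPNE for PANC-1 and PPCL-68 EV. RPL39L fell in HPDE by 0.37 and 0.76, and RPS27L, a p53 target, by 0.25 and 0.74. The call for RPS27L after PANC-1 EV was lost without the filter (adjusted p = 0.070) and without PANC-1 EV replicate 2 (adjusted p = 0.066) or residual medium replicate 3 (adjusted p = 0.106). RPL10L was at 0 in all libraries.

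Near-identical pseudogene copies can draw reads from the members, and the assignment of such reads is not stated. The tables hold 625 rows of ribosomal protein pseudogenes, and their reads came to 1.41 to 1.45% of the members' reads in the HPNE PPCL-68 EV libraries and 1.22 to 1.36% in the other HPNE libraries. In HPDE the share was 1.41 to 1.51% in untreated, 1.42 to 1.48% in residual medium, 1.49 to 1.55% in PANC-1 EV and 1.73 to 1.82% in PPCL-68 EV libraries, so the PPCL-68 EV libraries stood above all others of their line in both lines. RPS2P46, a copy of RPS2, was the highest pseudogene row in HPDE at 448 FPKM and averaged 425 with residual medium and 539.7 after PPCL-68 EV. The rise of RPS2 itself after PPCL-68 EV was 0.17, and reads of the copies cannot be separated here, so the level of RPS2 is uncertain.

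Features outside the rule were set beside the responses. In HPDE the median log2 difference after PANC-1 EV was -0.29 for the 46 members with the pyrimidine run at a listed start and -0.26 for the 16 without it, and after PPCL-68 EV it was -0.19 and -0.24. RPS14 and RPL22, with the run, and RPL4, without it, were among the largest falls, and RPL12, RPS12 and RPLP0, all with the run, were among the rises (the starts printed above). Across the 76 HPDE members, the Spearman correlation of the difference with mean FPKM was 0.32 for PANC-1 EV and 0.26 for PPCL-68 EV. With transcript length it was 0.19 and -0.06, and with transcript GC content 0.09 and 0.12. Over all 12223 HPDE genes tested, the Spearman correlation with gene length was 0.20 for PANC-1 EV and 0.21 for PPCL-68 EV. Shorter genes thus tended to have lower differences from residual medium. For residual medium against untreated the correlation over all genes was -0.34. The part of gene length in the counts of members was not tested. The points share the same libraries, and these values are descriptions.

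Other genes of the translation machinery were counted from lists, beside a median gene of -0.04 after PANC-1 EV and -0.03 after PPCL-68 EV in HPDE. Of all genes there, 28.2% were higher and 35.1% lower after PANC-1 EV, and 31.3% and 36.4% after PPCL-68 EV. In HPNE the shares were 13.9% and 10.3%, and 20.3% and 19.7%. Mitochondrial ribosomal proteins, which serve a separate ribosome, were lower for 46 of 72 and higher for 1 after PANC-1 EV in HPDE, and lower for 58 and higher for 3 after PPCL-68 EV, with medians of -0.25 and -0.37. In HPNE 13 of 71 were lower and 0 higher after PANC-1 EV, and 21 lower and 5 higher after PPCL-68 EV. MRPL16 fell by 0.67 and 0.87 in HPDE, and MRPL17 fell by 0.91 and 0.97 in HPNE. Of 66 ribosome assembly and ribosomal RNA synthesis genes in HPDE, 28 were higher and 18 lower after PANC-1 EV, and 10 were higher and 33 lower after PPCL-68 EV, with medians of 0.07 and -0.12. Of 65 in HPNE, 3 were higher and 12 lower after PANC-1 EV (median -0.21), and 7 higher and 9 lower after PPCL-68 EV (median -0.02). IMP3, of the early small subunit processome, fell in HPDE by 1.03 and 0.82, and RRN3, the initiation factor of RNA polymerase I, rose by 0.80 after PPCL-68 EV.

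Of 16 other mRNAs known to carry the TOP motif, 8 were lower and 2 higher after PANC-1 EV in HPDE, and 10 lower and 5 higher after PPCL-68 EV, with medians of -0.12 and -0.18. In HPNE 1 was higher and 0 lower after PANC-1 EV, and 1 higher and 2 lower after PPCL-68 EV. In HPDE EIF4A2 rose by 0.79 and 0.66, PABPC1 rose by 0.61 after PPCL-68 EV, and HNRNPA1 fell by 0.75 after PPCL-68 EV. Host genes of small nucleolar RNAs, several of which also begin with the motif, rose for 8 of 12 and fell for 0 after PANC-1 EV in HPDE, and 7 rose and 2 fell after PPCL-68 EV, with medians of 0.71 and 0.76. In HPNE 6 rose and 0 fell after PANC-1 EV, and 7 rose and 0 fell after PPCL-68 EV. ZFAS1 rose by 1.63 and 2.13 in HPDE, and GAS5 by 1.12 and 1.49 in HPNE. Among 20 regulators of mTORC1 and the TOP motif in HPDE, 8 rose and 4 fell after PANC-1 EV and 9 rose and 1 fell after PPCL-68 EV, with medians of 0.13 in each. Of 18 in HPNE, 4 rose and 1 fell after PANC-1 EV, and 8 rose and 1 fell after PPCL-68 EV. SESN2, an inhibitor of mTORC1 under amino acid stress, rose by 2.06 and 2.10 in HPDE and by 2.15 and 2.09 in HPNE, and DDIT4, another inhibitor, rose by 0.92 and 0.86 in HPDE. Their part in the levels of the members was not tested.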

How the data were processed

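Gene-level FPKM were deposited by the authors for 24 libraries. The submitters' processing notes list CASAVA, STAR, HTSeq, DESeq2 and hg19, with no role or version. FPKM times gene length came out as whole reads for 100% of values (within 0.01 read), so depth was recovered. Samples were grouped by their labels. log2(FPKM + 1) of genes with a mean of at least 1 FPKM was fitted per line with limma 3.58.1 in R 4.3.3 (8 residual degrees of freedom), and all 24 libraries together for differences between the lines, with Benjamini-Hochberg adjustment over all genes and a threshold of 0.05. This scale understates changes of low genes. Tables and figures used Python 3.11.15, pandas 2.3.3 and matplotlib 3.10.9. In reads simulated from the mean levels and depths of these libraries, 200 genes were changed 2-fold in the PANC-1 EV group. Against residual medium the fit recovered 98% of them in HPDE (12212 genes tested) and 96% in HPNE (11492 genes), with 17 and 15 false calls. The simulation gave all genes the same assumed spread and held no libraries that lie apart. Treatment differences of the members were also smaller than 2-fold, so these shares do not say which changes of members could be detected. Members named were those with the largest called changes per comparison and members with set roles. The members and lists were chosen with earlier results of these data known. Same-numbered HPNE PANC-1 EV and PPCL-68 EV libraries deviated together (mean correlation 0.45), which comes from the data and not the labels, and other groups did not pair. The alternatives were a replicate block, a pseudocount of 0.1, no filter, size factors, the compared libraries alone and each library left out, and, chosen after seeing the data, leaving out the 4 HPNE libraries that lay apart. Some results for single genes are not reported here.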

Additional observations from a re-analysis of the deposited data

Results flagged for a closer look

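The effect of PANC-1 EV against residual medium differed between the lines for 5 of 76 members, by the interaction test in limma. Over all 12377 genes tested, 12.5% were lower in this contrast, a larger share than among the members. With single libraries left out the count of members ranged from 2 to 23. Values are the HPDE minus the HPNE log2 difference. RPS28 had -0.74 (adjusted p = 0.022), with 241, 179 and 219 FPKM in HPDE residual medium against 128, 179.5 and 149 after the vesicles, and 123, 123 and 136 against 208, 119.8 and 140.0 in HPNE, where PANC-1 EV replicate 1 stood above the others. RPL23 had -0.59 (adjusted p = 0.0016), with 141, 147 and 155 FPKM in HPNE residual medium against 170.1, 143 and 132. RPL7A had -0.42 (adjusted p = 0.031), with 967, 937 and 952 against 639.5, 699 and 693 FPKM in HPDE and 706, 716 and 789 against 733, 738 and 633 in HPNE. RPL24 had -0.42 (adjusted p = 0.0079), with 141, 153 and 155 against 122, 138 and 135 FPKM in HPNE. RPL27 had -0.23 (adjusted p = 0.0499, just under the threshold), with 203, 195 and 209 against 152, 166 and 169 FPKM in HPDE and 151, 155 and 154 against 136, 149 and 149 in HPNE.

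The effect of PPCL-68 EV differed between the lines for RPL24 by -0.32 (adjusted p = 0.032), with 192, 202 and 179 FPKM after the vesicles in HPDE and 164, 148 and 142 in HPNE. The difference of residual medium from untreated cells was higher in HPDE for RPS9 by 0.34 (adjusted p = 0.026), RPL12 by 0.43 (adjusted p = 0.010), RPL18 by 0.48 (adjusted p = 0.042) and RPS23 by 0.62 (adjusted p = 0.024), all by the interaction test in limma. Over all genes, 13.6% were lower in the PPCL-68 EV contrast and 21% higher in the residual medium contrast. RPL18 measured 118, 108 and 97.1 FPKM in untreated HPNE and 82.1, 82.3 and 93.5 with residual medium, and 133, 132 and 137 and then 154, 147 and 149 in HPDE.

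By the same test, genes outside the rule differed too. RPL22L1 had 1.31 (adjusted p = 0.024) for PANC-1 EV and 1.11 (adjusted p = 0.047) for PPCL-68 EV. RPS27L had -0.53 (adjusted p = 0.017) for PPCL-68 EV. RPL7L1 had -0.46 (adjusted p = 0.0034) for residual medium.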

How the results depend on the processing

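Counts of members below are those called by limma, as the number higher or lower in the first group named. Where no share of all genes was given above for the same fit, a count shows only how the calls moved with processing. Without the 4 HPNE libraries that lay apart, a choice made after the data were seen, HPNE counts were 15 higher and 6 lower for PANC-1 EV against residual medium, 5 and 31 for PPCL-68 EV against residual medium, 2 and 60 for residual medium against untreated, 66 lower (PANC-1 EV) and 67 lower (PPCL-68 EV) against untreated, and 31 higher for PANC-1 EV against PPCL-68 EV. The interactions then counted 47 lower (PANC-1 EV), 1 higher and 5 lower (PPCL-68 EV) and 57 higher (residual medium).

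With size factors HPNE counts were 1 lower (PANC-1 EV against residual medium), 7 lower (PPCL-68 EV against residual medium), 1 higher and 1 lower (residual medium against untreated), 0 lower (PANC-1 EV against untreated) and 8 lower (PPCL-68 EV against untreated). HPDE counts were 0 lower (residual medium against untreated) and 4 higher (PANC-1 EV against untreated), the interactions counted 3 lower, 0 lower and 2 higher in the order above, and untreated HPDE against HPNE counted 23 higher and 18 lower. Without the filter HPNE counts were 1 lower (PPCL-68 EV against residual medium), 0 lower and 6 lower (PANC-1 and PPCL-68 EV against untreated) and 0 higher (PANC-1 against PPCL-68 EV), HPDE counts were 0 higher (PANC-1 EV against residual medium), 0 lower (residual medium against untreated) and 1 higher (PANC-1 EV against untreated), and the interactions counted 2 lower, 0 lower and 1 higher.

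The replicate block gave 0 lower (HPNE PANC-1 EV against untreated), 0 higher (HPNE PANC-1 against PPCL-68 EV), 0 higher (HPDE PANC-1 EV against residual medium) and 0 lower (HPDE residual medium against untreated), and moved no other count by over 1.5 times. Same-numbered libraries had a mean correlation of deviations of 0.027 in HPNE (-0.513 to 0.565) and -0.041 in HPDE (-0.246 to 0.150). A pseudocount of 0.1 gave 0 lower for HPNE PANC-1 EV against untreated. Fits of the compared libraries alone gave 2 lower (HPNE PANC-1 EV against untreated), 0 higher (HPNE PANC-1 against PPCL-68 EV), 0 higher (HPDE PANC-1 EV against residual medium) and 11 higher (HPDE residual medium against untreated). The cause of these changes was not tested. Voom with TMM on recovered reads is left out because the files hold FPKM.

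Leaving out 1 library at a time moved the counts as follows. In HPNE they ranged from 0 to 1 higher and 0 to 1 lower (PANC-1 EV against residual medium), 0 to 2 and 1 to 18 (PPCL-68 EV against residual medium), 0 to 0 and 1 to 12 (residual medium against untreated), 0 to 0 and 0 to 6 (PANC-1 EV against untreated), 0 to 0 and 6 to 39 (PPCL-68 EV against untreated) and 0 to 4 and 0 to 0 (PANC-1 against PPCL-68 EV). In HPDE, in the same order, they ranged from 0 to 3 and 52 to 61, 5 to 10 and 34 to 42, 0 to 2 and 0 to 1, 0 to 5 and 40 to 51, 9 to 12 and 28 to 33, and 5 to 7 and 22 to 34. The interactions ranged from 0 to 0 and 2 to 23 (PANC-1 EV), 0 to 1 and 0 to 2 (PPCL-68 EV) and 1 to 24 and 0 to 0 (residual medium), and untreated HPDE against HPNE from 40 to 50 and 8 to 10. The highest HPNE counts came without PPCL-68 EV replicate 1 (18 lower against residual medium and 39 against untreated, and 4 higher for PANC-1 against PPCL-68 EV) or without residual medium replicate 3 (12 lower against untreated). Without HPNE residual medium replicate 3 the interactions counted 23 lower for PANC-1 EV and 23 higher for residual medium, and without HPNE PPCL-68 EV replicate 1 they counted 15 and 24.

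The median member changed sign for HPNE PANC-1 EV against residual medium (-0.018) without PANC-1 EV replicate 2 (0.0007) or 3 (0.020), without residual medium replicate 3 (0.045) or without the 4 libraries (0.014), for HPNE PPCL-68 EV against residual medium without residual medium replicate 3 (0.015) or PPCL-68 EV replicate 3 (0.0076), with a range over single libraries left out down to -0.19, for HPNE PANC-1 against PPCL-68 EV without PANC-1 EV replicate 1 (-0.0004) or PPCL-68 EV replicate 3 (-0.025), with a range up to 0.19, for the PPCL-68 EV interaction without HPNE PPCL-68 EV replicate 1 (0.042), with a range down to -0.17, and, with size factors, for untreated HPDE against HPNE (-0.035). With size factors that last comparison also turned for RPL5 (-0.052), RPL23 (-0.041), RPS6 (-0.047), RPLP1 (-0.061), RPS14 (-0.082) and RPL36AL (-0.23). RPL7L1 turned in HPNE PPCL-68 EV against residual medium without the 4 libraries (-0.14). Differences of single genes that were called in neither fit are not listed, and some of them changed sign.

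Every library had at least 29209142 recovered reads. The spread of HPNE replicates limits what the HPNE comparisons can detect.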
